A study of Mus musculus with 6 samples.

Results

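The genes described here are 10 chemokines of the mouse gut, Ccl5, Ccl6, Ccl20, Ccl25, Ccl28, Cxcl9, Cxcl10, Cxcl12, Cxcl13 and Cxcl16. They were selected by gene symbol, 10 of the 55267 genes in the deposited table, and their 34 transcripts were summed to 1 value per gene and library. All 10 reached a mean of 1 FPKM (fragments scaled to transcript length and library size) over the 6 libraries, and 12940 genes in all did so and were tested. RNA came from intestinal tissue of mice that received 1 ml of water into the stomach once a day for 14 days. The 3 cold water libraries belong to mice dosed at 8 am with water of 0 to 4 °C. The 3 control libraries belong to mice dosed at 9 am with water of 20 to 25 °C, so temperature and hour of gavage cannot be told apart. All mice were housed at 22 °C. Strain, age and sex are unstated, as is whether any 2 libraries share an animal, so p-values measure only the spread between these libraries.

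Chemokines are small secreted proteins that attract cells bearing the matching receptor, and their 2 large families are named CC and CXC after the spacing of the first cysteines. In the small intestine CCL25 and CCL28 are made by the epithelium and draw T cells and antibody-secreting cells into the mucosa. CCL20 and CXCL13 take part in building lymphoid follicles, CXCL9 and CXCL10 are induced by interferon, CXCL12 is made by stromal cells, and CXCL16 is made as a membrane protein that can be shed.

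The libraries held 72690433 to 78668871 estimated counts, about 19306900 to 20894800 fragments each. Marker levels of several cell types differed within groups. B cell and follicle markers summed to 196 FPKM in cold water 1 and to 9.95 to 15.5 FPKM in the other 5 libraries, with all 17 genes at 1 FPKM or more in cold water 1 and 4 of 17 in cold water 2 and 3. T cell markers (16 genes) summed to 219 FPKM in cold water 1 and to 58.9 to 103 FPKM elsewhere. Smooth muscle markers (6 genes) summed to 338 to 1350 FPKM in cold water and 169 to 1646 FPKM in controls. The tissue is named proximal jejunum for each sample but colon in the series' design. The enterocyte list (11 genes) summed to 30693 to 51610 FPKM, with Apoa1 at 8407 to 13363 FPKM and Lct at 236.6 to 405.5 FPKM. The ileal gene Fgf15 had a count of 0 in all 6 libraries. The colon list (10 genes) summed to 1301 to 2318 FPKM. Its genes Krt20 (770 to 1752 FPKM), Muc2 (181 to 390 FPKM), Car4 (149 to 306 FPKM) and Slc26a3 (24.6 to 33.5 FPKM), which the small intestine also expresses, were abundant, Aqp8 reached 3.54 FPKM and Car1 2.76 FPKM, and Hoxb13, Scnn1b and Scnn1g stayed at 0.159 FPKM or below. In bulk tissue, fewer cells of a type and less RNA per cell cannot be told apart.

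Ccl25 has a pair of annotated starts, and nearly all of its RNA was assigned to the downstream one, so the sequences around both are shown first. The windows run from 250 bases before to 50 bases after the first transcribed base (RefSeq, GRCm38.p6), 5′ to 3′, and capitals mark motif matches. The downstream window is chr8:4349338-4349637 on the plus strand with 51.7% G and C, and the upstream window is chr8:4324960-4325259 on the plus strand with 74.0% G and C.
Ccl25 downstream start: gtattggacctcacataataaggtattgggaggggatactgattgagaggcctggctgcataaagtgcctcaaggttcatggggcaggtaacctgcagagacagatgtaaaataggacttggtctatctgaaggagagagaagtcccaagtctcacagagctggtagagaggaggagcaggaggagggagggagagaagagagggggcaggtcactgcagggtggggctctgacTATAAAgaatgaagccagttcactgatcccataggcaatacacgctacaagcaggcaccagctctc
Ccl25 upstream start: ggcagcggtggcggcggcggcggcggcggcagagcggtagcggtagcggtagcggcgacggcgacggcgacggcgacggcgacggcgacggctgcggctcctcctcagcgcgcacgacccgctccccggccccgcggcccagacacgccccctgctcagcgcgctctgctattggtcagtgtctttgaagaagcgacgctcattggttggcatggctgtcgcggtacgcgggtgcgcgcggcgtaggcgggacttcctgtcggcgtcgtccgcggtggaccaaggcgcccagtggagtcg

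The downstream window held a TATA box (TATAAA, searched on both strands, capitals) at position -16, counting the first transcribed base as 1, and the upstream window held none. This motif was present in 13.6% of 32851 promoter windows of 300 bases. The 2 transcripts that begin at the downstream start, at base 4349588 of chromosome 8, held 98.9% of the gene's estimated count in control 1 and 99.5 to 99.7% in the other 5 libraries. The 8 transcripts that begin upstream, the first of them 24378 bases away, held 0.283 to 1.117%. The first 204 bases of the upstream region overlap Elavl1, an RNA-binding protein gene on the opposite strand at 60.8 to 66.7 CPM (the gene's estimated count relative to the normalised library total, on the usual CPM scale), and strand-specificity is unstated, so reads of the upstream part are uncertain.

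The windows of Ccl20, Cxcl10 and Cxcl9 are shown because their RNA is set beside NF-kB and interferon genes further on. They are chr1:83116516-83116815 (plus strand), chr5:92348840-92349139 (minus strand) and chr5:92328030-92328329 (minus strand).
Ccl20 start: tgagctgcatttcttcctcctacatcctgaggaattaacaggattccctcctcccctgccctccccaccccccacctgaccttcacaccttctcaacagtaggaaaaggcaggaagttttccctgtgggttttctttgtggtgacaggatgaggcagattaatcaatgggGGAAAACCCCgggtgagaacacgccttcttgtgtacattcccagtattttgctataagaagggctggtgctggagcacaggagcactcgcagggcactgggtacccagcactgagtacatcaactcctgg
Cxcl10 start: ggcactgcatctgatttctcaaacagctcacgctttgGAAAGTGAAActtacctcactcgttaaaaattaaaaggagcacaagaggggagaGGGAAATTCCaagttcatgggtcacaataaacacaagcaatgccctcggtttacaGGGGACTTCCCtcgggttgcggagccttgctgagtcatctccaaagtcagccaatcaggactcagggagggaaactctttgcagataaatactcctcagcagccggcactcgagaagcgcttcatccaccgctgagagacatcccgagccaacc
Cxcl9 start: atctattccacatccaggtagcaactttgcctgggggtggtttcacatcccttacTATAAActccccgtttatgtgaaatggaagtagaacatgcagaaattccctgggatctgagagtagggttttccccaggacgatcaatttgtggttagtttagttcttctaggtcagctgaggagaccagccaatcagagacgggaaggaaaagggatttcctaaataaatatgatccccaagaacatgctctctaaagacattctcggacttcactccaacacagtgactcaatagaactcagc

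In these windows capitals mark the NF-kB consensus, the core of the interferon-stimulated response element (GAAA, any 2 bases, GAAA) and TATAAA, on both strands. Ccl20 held the NF-kB consensus at position -80. Cxcl10 held it at -159, -104 and -103, the last match reading as the consensus on both strands and overlapping the one before it, and the response element core at -213. Cxcl9 held neither and had TATAAA at -195, and the window of Cxcl13, not shown, had TATAAA at -46. The NF-kB consensus was present in 8.46% of all windows and the response element core in 3.44%. The core of the interferon gamma activated site (TTCNNNGAA), present in 8.3%, had 0 matches in the 9 windows available for 8 of the 10 genes. Ccl5 and Cxcl16 had no entry. A match describes the letters and not a site in use.

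Ccl25 was by far the most abundant chemokine of the set. Per transcript length it had a mean of 697 ± 114 FPKM (SD, n = 6), and 0.835% of tested genes stood higher. Ccl6 followed with 39.8 ± 9.02 FPKM, Ccl5 with 35.2 ± 19.4 FPKM and Cxcl16 with 14.6 ± 4.30 FPKM. Ccl20 had 7.97 ± 9.73 FPKM, Cxcl10 7.44 ± 4.44 FPKM and Cxcl13 5.07 ± 8.74 FPKM, so the spread over libraries of Ccl20 and Cxcl13 exceeded their mean. Ccl28 had 4.62 ± 2.22 FPKM, Cxcl12 2.53 ± 0.794 FPKM and Cxcl9 1.89 ± 1.01 FPKM. The range of Ccl25 lay apart from that of Ccl6, while every later pair of neighbours in this order overlapped in range. The order of neighbours still held in all 6 libraries for Ccl5 above Cxcl16, and in 1 of 6 for Cxcl13 above Ccl28, where cold water 1 alone put Cxcl13 first.

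**Figure D1:**
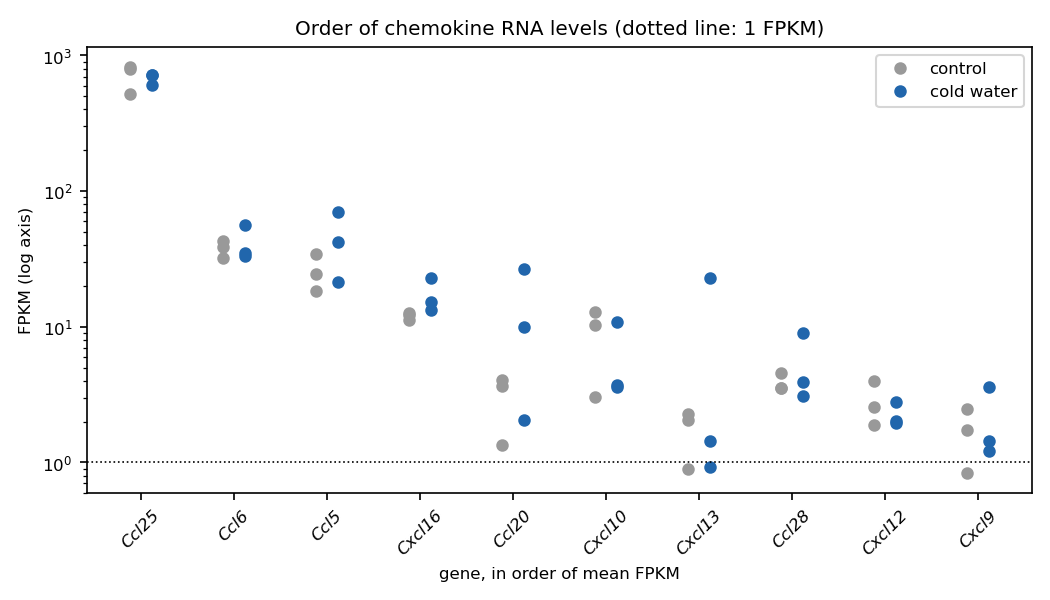
FPKM of the 10 chemokine genes (log axis) in 3 control libraries (grey) and 3 cold water libraries (blue), in order of the mean over 6 libraries. Ccl25, at 523 to 819 FPKM, lies above all the others, and Ccl20 and Cxcl13 spread the most.

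Which chemokines differ after repeated intake of near-freezing water was asked in 1 model over all tested genes. None of the 10 passed edgeR's quasi-likelihood test (adjusted p 0.878 to 0.990), where 0.0386% of all tested genes (5 of 12940) passed. Cxcl16 was the single member whose groups did not overlap in either direction. Each of its cold water libraries lay above every control, as in 5.29% of tested genes. The share of tested genes with every cold water library below every control was not counted. At an unadjusted p under 0.05 there was 1 member, Ccl20, against 5.01% of all genes, and leaving out a library moved that count between 0 and 4. DESeq2 passed 0 of the 9 members to which it gave an adjusted p, 1 of 10 having an unadjusted p under 0.05, and limma passed 0 with 0 under that level. The shares of all genes under that level in DESeq2 and limma were not counted. Of the 10 members 8 had a difference above 0, against 54.2% of tested genes, and their median log2 difference was 0.32 against 0.028 over all genes. That count rested on single libraries, since it was 4 without cold water 1 and 5 without control 2. Cold water 1 held the highest value of 5 of the 10 members and of 23.7% of all tested genes.

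**Figure D2:**
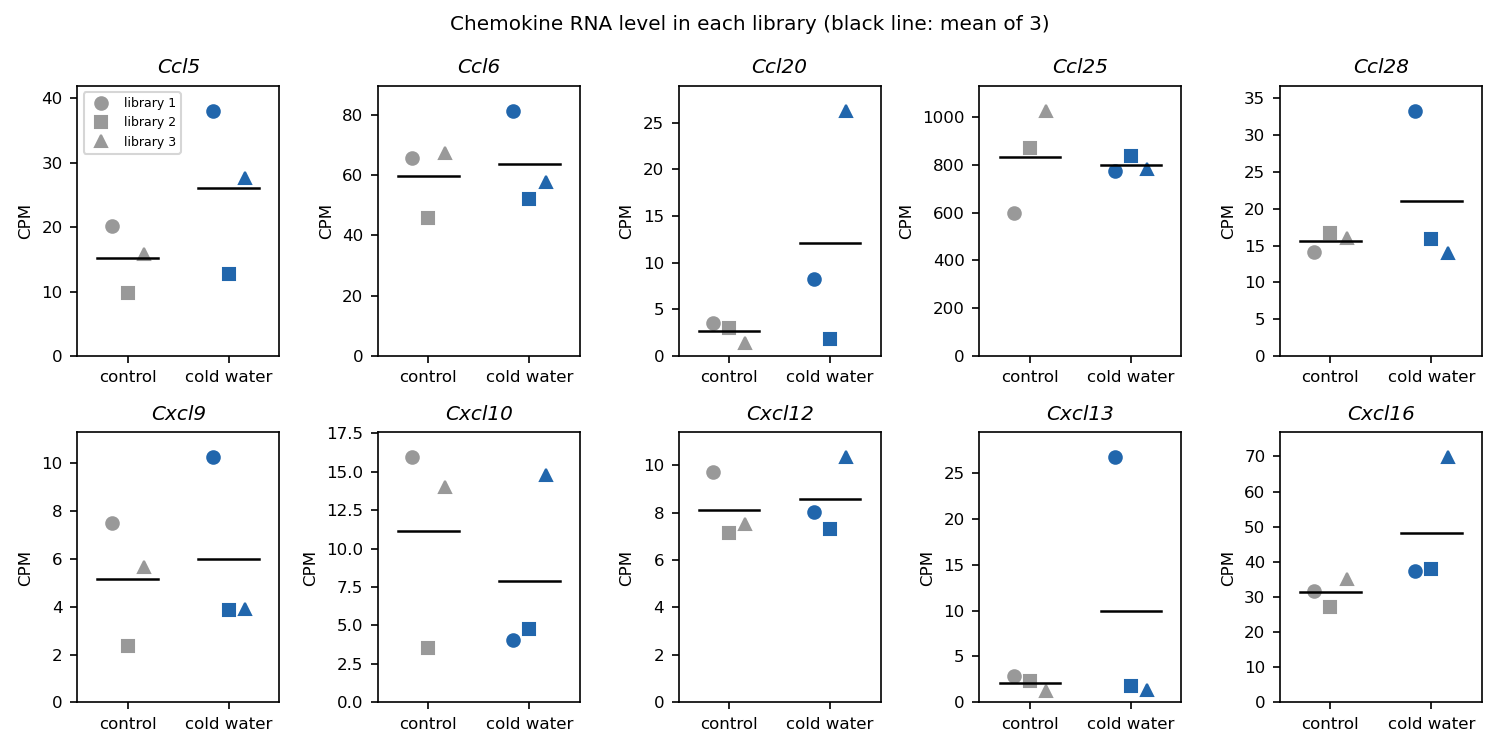
CPM (each axis from 0) of each chemokine gene in 3 control and 3 cold water libraries, with the mean of 3 as a black line and the library number as the symbol. Cxcl16 is higher in all 3 cold water libraries, and the high means of Ccl20 and Cxcl13 in cold water each come from 1 or 2 libraries.

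**Figure D3:**
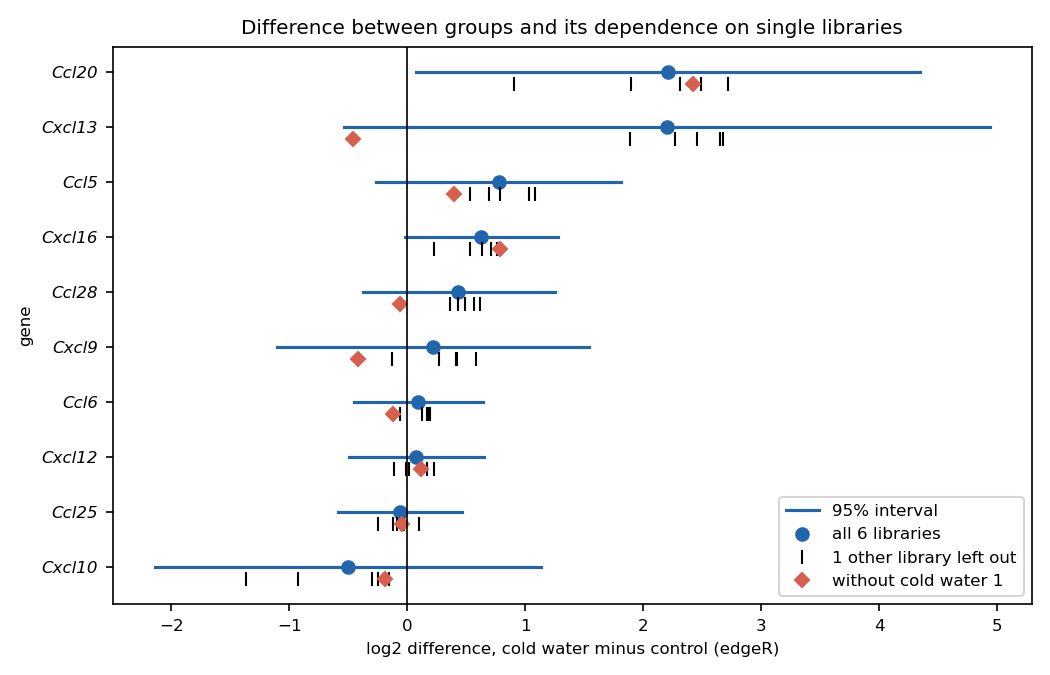
The log2 difference of each gene, cold water minus control, with its 95% interval (blue), and the same with 1 library left out (ticks, red diamond for cold water 1). The intervals of all genes except Ccl20 include 0, and Cxcl13 moves from 2.20 to -0.46 without cold water 1.

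The epithelial homing chemokines Ccl25 and Ccl28 showed no difference beyond the spread between libraries. Ccl25 (ENSMUSG00000023235, chromosome 8, 4325210 to 4360020, GRCm38), whose product binds CCR9 on gut T cells and thymocytes, stood at 775, 835 and 783 CPM in cold water 1, 2 and 3 and at 600, 870 and 1027 CPM in control 1, 2 and 3. The controls held both the lowest and the highest library and the cold water libraries lay between them. Its log2 difference was -0.061 with a standard error of 0.22 and a 95% interval of -0.59 to 0.47 (edgeR adjusted p = 0.990). With about 12075 to 19176 fragments a library, it was the most deeply read of the 10. The receptor gene Ccr9 stood at 5.96 CPM in cold water 1 and 1.65 to 2.68 CPM in the other 5 libraries, too low to test. Ackr4, a scavenging receptor that removes CCL25, stood at 6.65, 8.90 and 0.833 CPM in cold water and 4.04, 10.8 and 3.10 CPM in controls.

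Ccl28 (ENSMUSG00000074715, chromosome 13, 119623819 to 119654359), the ligand of CCR10 on IgA-secreting cells, stood at 33.4, 15.9 and 14.0 CPM in cold water and 14.1, 16.7 and 16.0 CPM in controls. Cold water 1 alone was high, and the other 5 lay at 14.0 to 16.7 CPM. Its log2 difference was 0.43 with a standard error of 0.34 (edgeR adjusted p = 0.902) and became -0.062 without cold water 1. Ccr10 was likewise highest in cold water 1, at 2.58 CPM against 1.304 CPM or less. Plasma cell markers (8 genes) summed to 615 FPKM in that library and 166 to 244 FPKM in the others. Most of this was Jchain, at 531 FPKM in cold water 1 and 110 to 192 FPKM in the others. Of 7 tested plasma cell markers, 5 peaked in cold water 1, where 23.7% of all tested genes did, and 2 in cold water 3. Prdm1 stood at 8.26 CPM in cold water 1 and 19.3 CPM in cold water 3. The part of these markers in the level of Ccl28 was not tested.

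Ccl20 and Cxcl13 had the largest differences and the largest spreads. The product of Ccl20 attracts CCR6-bearing B cells and dendritic cells to the epithelium that covers follicles. Ccl20 (ENSMUSG00000026166, chromosome 1, 83116766 to 83119167) stood at 8.24, 1.84 and 26.3 CPM in cold water and 3.55, 2.98 and 1.34 CPM in controls. Cold water 3 and cold water 1 were above every control, while cold water 2 lay inside the control range, so the groups overlapped. The log2 difference was 2.21 with a standard error of 0.90 and a 95% interval of 0.071 to 4.34 (edgeR unadjusted p = 0.0446, adjusted p = 0.878). It was 0.90 without cold water 3. These levels stand for about 25 to 453 fragments a library.

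Genes of the NF-kB pathway, which is known to induce Ccl20, were on average also highest in cold water 3. Nfkbia, Nfkbiz, Birc3, Nfkb1, Nfkb2, Rela and Relb peaked there. Tnfaip3 and Ltb peaked in cold water 1, Ltbr in cold water 2 and Il17ra in control 1. Enterocyte markers were on average highest in cold water 3 as well, where 6 of the 11 tested peaked. The share of all tested genes that peaked in cold water 3 was not counted, so these peaks have no background to be set against. Of the 11 tested genes of the NF-kB and lymphotoxin list, 9 had a difference above 0 and 2 below, where 54.2% of all tested genes stood above 0. None passed in edgeR, and 2 had an unadjusted p under 0.05, against 5.01% of all tested genes. The median log2 difference was 0.50. DESeq2, which passed 71 genes in all against 5 in edgeR, passed 1 of them, Tnfaip3 (adjusted p = 0.0150). Tnfaip3, a feedback inhibitor of NF-kB, stood at 22.7, 5.55 and 18.4 CPM in cold water and 2.95, 4.20 and 3.84 CPM in controls, with no overlap (log2 difference 2.08, standard error 0.51, edgeR adjusted p = 0.878). Nfkbiz, a nuclear member of the inhibitor family, stood at 51.4, 39.9 and 96.2 CPM in cold water and at 39.6 to 42.5 CPM in controls. Without cold water 3 the list's median was 0.072. The part of this list in the level of Ccl20 was not tested. Ccr6 was high in cold water 1 alone, at 4.85 CPM against 0.123 to 0.603 CPM, and not in cold water 3 where Ccl20 peaked. Markers of the follicle-associated epithelium (8 genes) summed to 116 FPKM in cold water 1, to 56.0 FPKM in cold water 3 and to 54.2 to 92.2 FPKM in controls. Most of each sum was Pglyrp1, at 76.5 FPKM in cold water 1, 36.3 FPKM in cold water 3 and 39.2 to 63.7 FPKM in controls. Gp2, a gene of the M cells within that epithelium, was at 0.479 FPKM or below throughout.

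Cxcl16 was higher in all 3 cold water libraries than in any control, by a margin that rested largely on cold water 3. The protein serves as a membrane-bound adhesion molecule and, once cut by ADAM10 or ADAM17, as an attractant for CXCR6-bearing T cells. Cxcl16 (ENSMUSG00000018920, chromosome 11, 70453983 to 70459984) stood at 37.3, 37.9 and 69.8 CPM in cold water and 31.6, 27.1 and 35.1 CPM in controls. The groups did not overlap, with cold water higher as in 5.29% of tested genes, but cold water 1 and 2 were only just above control 3. The log2 difference was 0.63 with a standard error of 0.27 and a 95% interval of -0.021 to 1.28 (edgeR unadjusted p = 0.0561, adjusted p = 0.878). The value was 0.23 without cold water 3 and lay between 0.53 and 0.78 with any other library left out. Cxcr6 stood at 1.15 to 2.19 CPM in cold water and 0.892 to 2.08 CPM in controls. The protease genes Adam10 (61.8 to 78.3 CPM over 6 libraries, log2 difference 0.062) and Adam17 (18.8 to 25.4 CPM, 0.19) did not pass either (edgeR adjusted p = 0.978 and 0.908).

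Ccl5 and Ccl6 were the most abundant members after Ccl25. Ccl5, also called RANTES, is stored by cytotoxic T cells, and receptors of its product include CCR1 and CCR3. Ccl5 (ENSMUSG00000035042, chromosome 11, 83525778 to 83530518) stood at 38.1, 12.7 and 27.6 CPM in cold water and 20.2, 9.79 and 15.8 CPM in controls. The groups overlapped, since cold water 2 lay below control 1 and control 3. For Ccl5 the log2 difference was 0.77 with a standard error of 0.44 (edgeR adjusted p = 0.878) and 0.40 without cold water 1.

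Genes of intraepithelial T cells had the profiles most like that of Ccl5. By the smallest root mean square difference of centred log2 CPM over 6 libraries, the 3 genes most like it among 12940 were the T cell coreceptor gene Cd8a (0.14), the granzyme gene Gzmb (0.16) and Itgae (0.16), the integrin subunit that holds T cells in the epithelium. Cd8a stood at 16.4, 6.36 and 15.4 CPM in cold water and 11.4, 4.75 and 9.06 CPM in controls, the same order of libraries as Ccl5. All 13 tested T cell markers had a difference above 0, against 54.2% of all tested genes, and none passed in edgeR or DESeq2. Their median was 0.78, and 0.22 without cold water 1. Cd2 and Cd4 among them reached 1 FPKM in cold water 1 alone. The part of T cell number in the level of Ccl5 was not tested. The receptor gene Ccr1 (1.40 to 4.13 CPM) was highest in cold water 1, and Ccr3 was at 0.110 CPM or below.

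Ccl6 (ENSMUSG00000018927, chromosome 11, 83587882 to 83593087), a mouse chemokine of myeloid cells, lies 57363 bases from Ccl5 on the same strand. It stood at 81.4, 52.1 and 57.6 CPM in cold water and 65.7, 45.8 and 67.4 CPM in controls, an overlapping and narrow spread. For Ccl6 the log2 difference was 0.095 with a 95% interval of -0.45 to 0.64 (edgeR adjusted p = 0.980), and it was -0.12 without cold water 1 and -0.063 without control 2. Macrophage and dendritic markers (14 genes) summed to 216 FPKM in cold water 1 and to 52.9 to 84.4 FPKM elsewhere. Most of the sum in cold water 1 was Lyz2, at 123 FPKM there and 24.5 to 37.4 FPKM elsewhere. All 9 tested genes of this list peaked in cold water 1, where 23.7% of all tested genes did. Granulocyte markers (9 genes) summed to 4.26 FPKM in cold water 1 and 1.105 to 2.55 FPKM elsewhere, with Siglecf at 0.493 to 1.62 FPKM, Prg2 at 0.252 to 2.35 FPKM and 2 of the 9 genes, Ly6g among them, at a count of 0 in all 6 libraries. Their part in the level of Ccl6 was not tested.

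Cxcl9 and Cxcl10 encode ligands of CXCR3, a receptor of activated T cells, and both are classical interferon-induced genes. They lie 18558 bases apart on the minus strand of chromosome 5, yet they differed in which libraries were high. Cxcl9 (ENSMUSG00000029417, chromosome 5, 92321347 to 92328079) stood at 10.3, 3.86 and 3.90 CPM in cold water and 7.49, 2.38 and 5.66 CPM in controls. Cxcl10 (ENSMUSG00000034855, chromosome 5, 92346638 to 92348889) stood at 4.08, 4.76 and 14.8 CPM in cold water and 16.0, 3.53 and 14.0 CPM in controls. Cold water 1 had the most Cxcl9 and little Cxcl10, control 1 was high in both, cold water 3 and control 3 were high in Cxcl10, and control 2 had the least of both. In each gene the groups overlapped over most of their range.

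The log2 difference was 0.22 for Cxcl9, with a standard error of 0.56 and a 95% interval of -1.11 to 1.54 (edgeR adjusted p = 0.983). For Cxcl10 it was -0.50 with a standard error of 0.69 and a 95% interval of -2.14 to 1.13 (edgeR adjusted p = 0.947). Without cold water 1 the value for Cxcl9 was -0.42, and without cold water 3 that for Cxcl10 was -1.37. These rest on about 50 to 232 fragments a library for Cxcl9 and 75 to 321 for Cxcl10. Cxcl10 overlaps Art3 on the opposite strand (1.80 to 7.96 CPM), so with the strand unknown its reads are uncertain.

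Of 25 tested interferon gamma response genes, 24 had a log2 difference below 0 and 1 above, where 54.2% of all tested genes stood above 0. The median was -0.65. With 1 library left out it lay between -1.26 (without cold water 1) and -0.54 (without cold water 2, with 4 of the 25 above 0). None passed in edgeR, and 9 of the 25 had an unadjusted p under 0.05, where 5.01% of all tested genes did. DESeq2, which passed 71 genes in all against 5 in edgeR, passed 2 of the 25, Igtp (log2 difference -1.93, adjusted p = 0.0368), a GTPase gene, and Socs1 (log2 difference -1.79, adjusted p = 0.0154), a feedback inhibitor gene of cytokine signalling. Irgm1, a GTPase of cell-autonomous defence, stood at 43.5, 24.5 and 20.0 CPM in cold water and 70.4, 50.3 and 130 CPM in controls, without overlap (log2 difference -1.51, edgeR adjusted p = 0.878). Ido1, the tryptophan-degrading enzyme, was the exception at 9.14, 5.64 and 48.0 CPM in cold water and 7.43, 12.3 and 22.3 CPM in controls. Cxcl11, the remaining CXCR3 ligand gene, stood at 5.59, 8.14 and 12.2 CPM in cold water and 10.6, 3.85 and 14.4 CPM in controls (log2 difference -0.16). The difference between Cxcl9 or Cxcl10 and the rest of the list was not tested. Cxcr3 was highest in cold water 1 and 3, at 2.10 and 1.56 CPM, and lay at 0.356 to 0.686 CPM in the other 4 libraries. Ifng was at 0.200 CPM or below in all 6.

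Cxcl13 was high in 1 library. Its product is made by stromal cells of B cell follicles and attracts CXCR5-bearing B cells. Cxcl13 (ENSMUSG00000023078, chromosome 5, 95956951 to 95961068) stood at 26.7, 1.83 and 1.31 CPM in cold water and 2.86, 2.38 and 1.25 CPM in controls. Cold water 1 was 9.33 times the next library, and the other 2 cold water libraries lay below control 1 and control 2. For Cxcl13 the log2 difference was 2.20 with a standard error of 1.15 and a 95% interval of -0.54 to 4.94 (edgeR adjusted p = 0.878), and -0.46 without cold water 1. Away from cold water 1 it rests on about 23 to 58 fragments a library.

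RNA of the receptor gene and of B cell markers was high in the same library. Cxcr5 stood at 16.3 CPM in cold water 1 and 0.220 to 0.848 CPM in the other 5. The B cell gene Ms4a1 did the same, at 32.6 CPM against 0.261 to 0.771 CPM. All 13 tested B cell and follicle markers were highest in cold water 1. In the other libraries only 3 to 4 of the 17 listed genes reached 1 FPKM, so most were tested only through cold water 1. The median log2 difference of the 13 was 3.73, and 0.29 without that library. Follicular stroma markers (7 genes, of which Cr2 and Fcer2a also stand in the B cell list) summed to 161 FPKM in cold water 1 and 22.5 to 46.4 FPKM elsewhere. Most of the sum in cold water 1 was Clu (77.5 FPKM) and Mfge8 (61.5 FPKM). All 5 tested genes of this list peaked in cold water 1, where 23.7% of all tested genes did. The genes most like Cxcl13 over the 6 libraries were the immunoglobulin gene Ighv14-4 (0.27), the B cell gene Klhl6 (0.36) and Clu (0.37), a secreted chaperone gene that follicular dendritic cells also express. How far the follicle content of that library accounts for Cxcl13 was not tested.

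Cxcl12, a stromal chemokine that binds CXCR4 and the scavenging receptor ACKR3, had the narrowest range of the 10 in CPM, though not in FPKM. Cxcl12 (ENSMUSG00000061353, chromosome 6, 117168535 to 117181367) stood at 8.04, 7.30 and 10.3 CPM in cold water and 9.69, 7.12 and 7.53 CPM in controls. The highest library was 1.45 times the lowest in CPM, while FPKM ran from 1.89 to 3.98. For Cxcl12 the log2 difference was 0.077 with a standard error of 0.24 and a 95% interval of -0.49 to 0.65 (edgeR adjusted p = 0.988). On the log2(FPKM + 1) scale it was -0.20. Cxcr4 was high in cold water 1 alone, at 18.8 CPM against 1.32 to 1.74 CPM (log2 difference 2.24, edgeR adjusted p = 0.878). Ackr3 stood at 4.43, 5.44 and 2.13 CPM in cold water and 2.69, 6.03 and 2.02 CPM in controls, lowest in cold water 3 and control 3, where smooth muscle markers were lowest too.

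**Figure D4:**
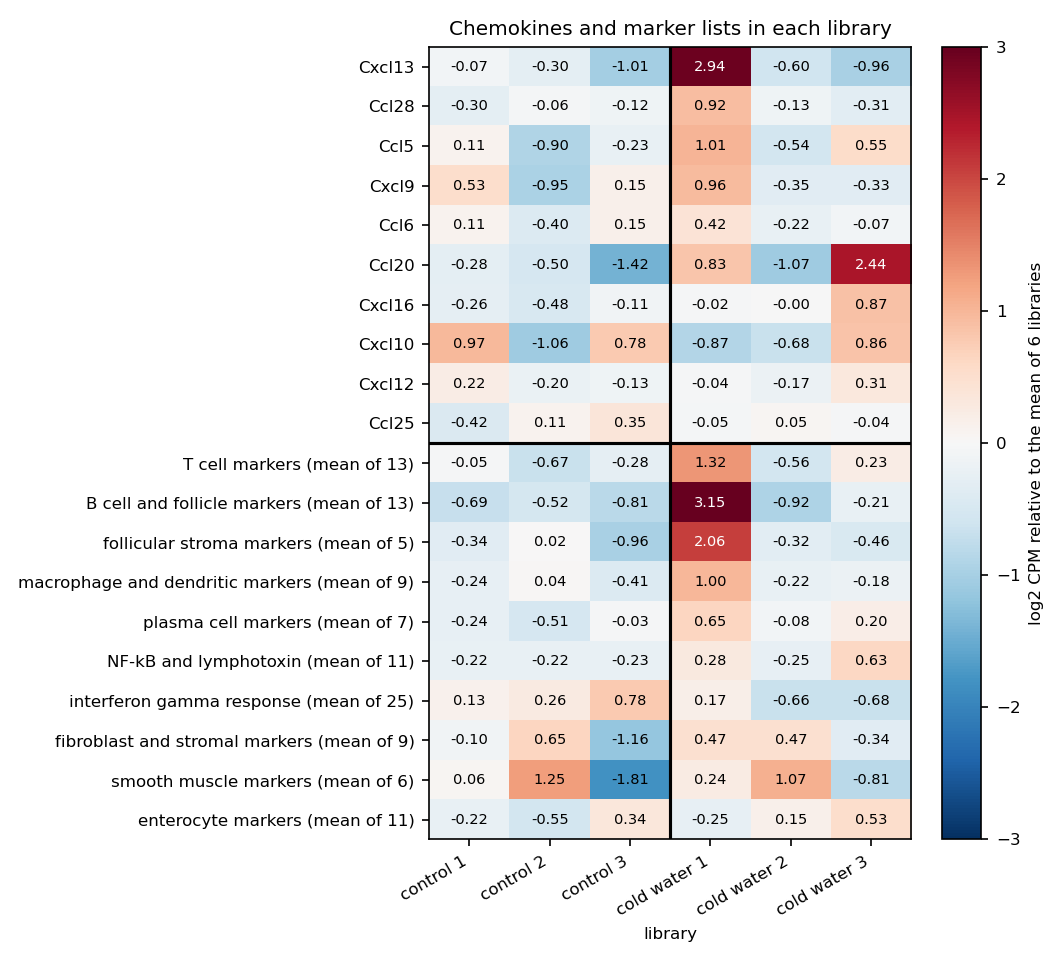
Log2 CPM of the 10 chemokines (top) and mean over the tested genes of 10 marker lists (bottom) in each library, relative to the mean of 6 libraries, with values printed in the cells. Cxcl13 (2.94) and the B cell and follicle list (3.15) peak in cold water 1. Ccl20 (2.44), the NF-kB and lymphotoxin list (0.63) and the enterocyte list (0.53) peak in cold water 3.

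Single isoforms carried most chemokine genes, and none of the 13 member transcripts at 1 FPKM or more passed. Their isoform-level edgeR adjusted p lay between 0.960 and 1.00, where 0.0285% of 21041 transcripts passed, and 1 of the 13 had an unadjusted p under 0.05 against 4.73% of all transcripts. DESeq2 passed 0 of them, with 3 under that unadjusted level. The share of all transcripts under that level in DESeq2 was not counted, so the 3 have no background. The 1 transcript under that level in edgeR was ENSMUST00000019064 of Cxcl16, which encodes all 246 residues. It held 82.7 to 93.0% of the gene's estimated count. It stood at 44.7 ± 15.9 CPM (SD, n = 3) in cold water and 27.2 ± 2.32 CPM in controls. For 8 of the 10 genes the same isoform led in all 6 libraries.

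Cxcl12 and Ccl20 were the exceptions, Cxcl12 with 4 leading isoforms over 6 libraries. ENSMUST00000112866, which codes for the 89 residues of the alpha form, held 69.2% of the gene's estimated count in control 1 and 64.5% in control 3, but 0.752 to 2.63% in the other 4 libraries. ENSMUST00000112871, with 93 residues (beta form), led in cold water 2 at 70.1%. ENSMUST00000073043, with 119 residues (gamma form), led in cold water 1 (58.9%) and control 2 (42.7%), and the retained-intron transcript ENSMUST00000134244 led in cold water 3 (69.3%). None of these reached a mean of 1 FPKM, so none was tested, and the gene rested on about 141 to 195 fragments a library. The forms share their first exons, so assignment of so few fragments is uncertain. Ccl20 was split between ENSMUST00000113437 (97 residues, 43.6 to 77.8% of its estimated count) and ENSMUST00000186832 (96 residues, 20.0 to 51.1%). The shorter form led in control 3 alone, where Ccl20 rested on about 25 fragments, so that lead is uncertain too.

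**Figure D5:**
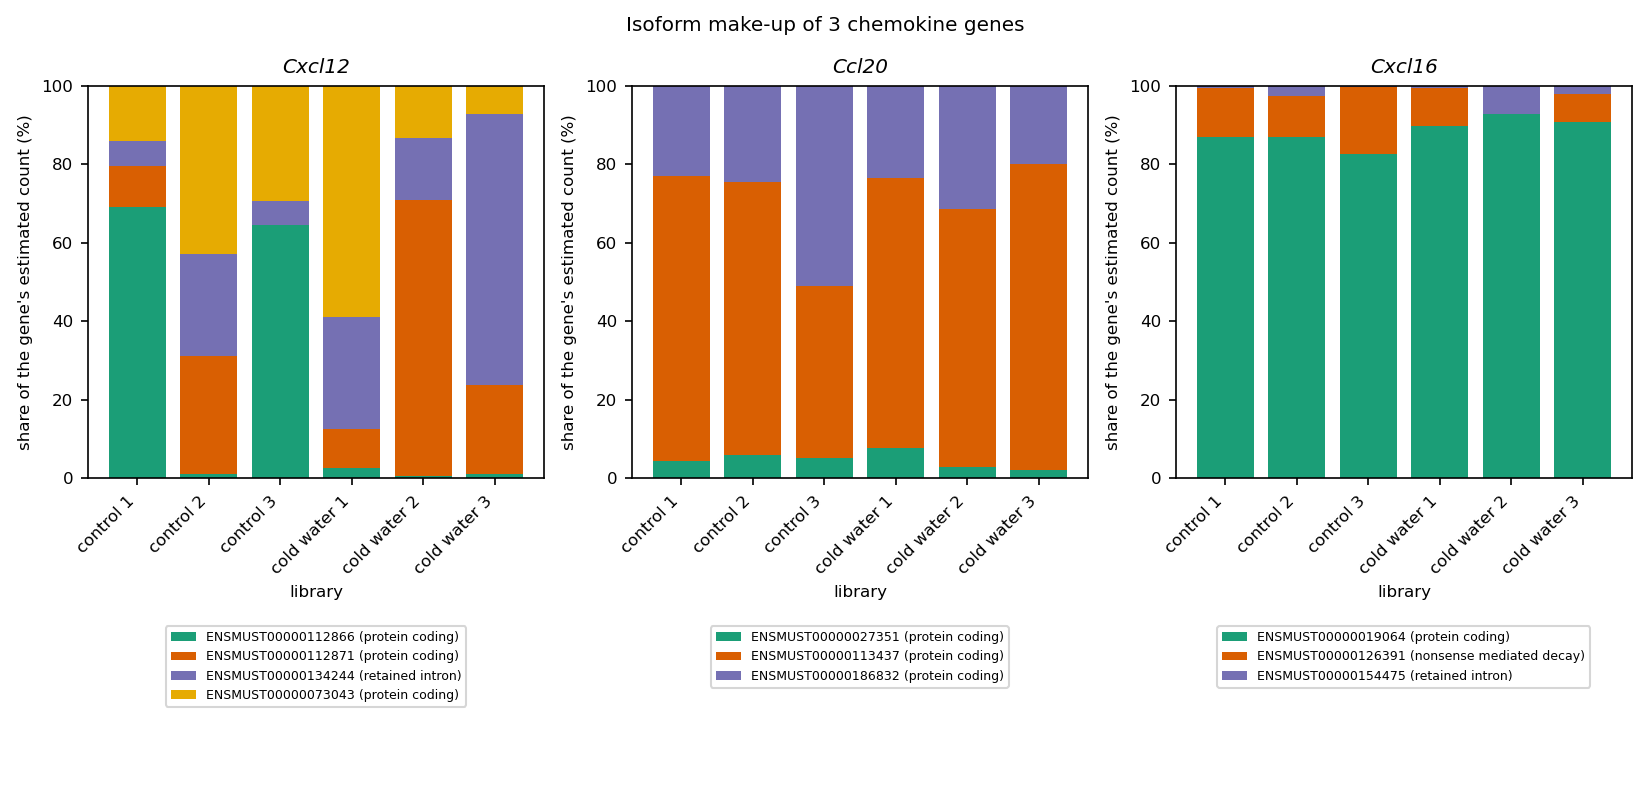
Share of each gene's estimated count (%) given to its isoforms in 3 control and 3 cold water libraries, for Cxcl12, Ccl20 and Cxcl16. The leading isoform of Cxcl12 changes between libraries of the same group, while ENSMUST00000019064 leads Cxcl16 at 82.7% or more throughout.

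The receptors of these chemokines were scarce. Of 11 receptor genes, 3 reached a mean of 1 FPKM (Cxcr4, Cxcr5 and Ackr3), and none passed in edgeR or DESeq2. Cxcr4 was at 10.9 FPKM in cold water 1 and 0.713 to 0.806 FPKM elsewhere, Cxcr5 at 6.23 against 0.0660 to 0.357 FPKM. Both thus reached the filter only through cold water 1, and their differences above 0 follow from that library. Ackr3 also stood above 0. The median log2 difference of the 3 was 2.24, and 0.079 without cold water 1. The receptor list summed to 29.5 FPKM in cold water 1 and to 3.64 to 5.58 FPKM in the other libraries. Among scavengers and processing enzymes, Dpp4, the brush border peptidase that trims CXCL9, CXCL10 and CXCL12, was abundant at 634, 812 and 932 CPM in cold water and 641, 489 and 920 CPM in controls (log2 difference 0.21, edgeR adjusted p = 0.946). Ackr4 did not pass either (log2 difference -0.13, edgeR adjusted p = 0.994). The scavenger genes Ackr1 (at most 2.58 CPM) and Ackr2 (at most 0.631 CPM) were too low to test.

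Of 27 other chemokine genes 9 were tested and none passed in edgeR or DESeq2, with 6 above 0, 3 below and a median log2 difference of 0.11. Without cold water 1 there were 3 above and 6 below, with a median of -0.12. Cx3cl1, the membrane chemokine fractalkine, stood at 80.2, 94.6 and 10.7 CPM in cold water and 98.2, 85.7 and 124 CPM in controls. Cx3cl1 was low in cold water 3 alone, the library where Ccl20 and Cxcl16 were highest. Ccl24, an eosinophil attractant, stood at 8.50, 15.8 and 37.5 CPM in cold water and 8.52, 16.9 and 20.0 CPM in controls, again highest in cold water 3. Ccl21a, a lymphatic chemokine with near-identical copies whose reads may be split, was highest in cold water 1 at 21.8 CPM against 3.08 to 8.77 CPM. Ccl11 (log2 difference 0.68), Ccl9 (0.063), Cxcl14 (0.11) and Pf4 (0.21) stood above 0 and Ccl27a (-0.53) below.

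For the other members that spanned more than 1 log2 unit over the libraries, the genes of most similar profile came from varied functions. Among the genes closest to Ccl28 were the immune genes Cd44 (0.061) and Aif1 (0.067), both high in cold water 1. Cxcl16 lay closest to Alas1 (0.077), the first enzyme of haem synthesis, the predicted gene Gm8162 (0.087) and Plekhh1 (0.092), all high in cold water 3. Among the genes nearest to Cxcl9 were Gzma (0.29) and Tlcd1 (0.29). Cxcl10 lay nearest to Ypel5 (0.28), the ribosomal pseudogene Rpl7a-ps3 (0.31) and Gm20498 (0.31). Ccl20 had no close match, its nearest being the immunoglobulin gene Ighv1-5 (0.45), Gm15429 (0.55) and the vesicle gene Syngr2 (0.63). These are distances in log2 units over 6 libraries, the smallest among tested genes, and carry no test.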

How the data were processed

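RNA of 6 intestinal libraries (3 cold water, 3 control) was analysed from 1 table. For each of 142604 transcripts and each library the table deposited by the authors holds an FPKM and an estimated count, per the file headers. The submitters' processing notes list HISAT2 2.0.4 and StringTie 1.3.4d, besides cutadapt 1.9, FastQC 0.10.1, DESeq2 and edgeR; which tool did what, the genome build and the strand setting are unstated there. The deposited estimated counts were whole numbers within 1.02 of FPKM times length times a library constant for 99.58 to 99.65% of transcripts above 0, and low values gathered at 3.765 counts, taken as 1 fragment. All 34 member transcripts had GENCODE M21 (GRCm38) coordinates.

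Counts and FPKM were summed by symbol. Genes with a mean of 1 FPKM or more were tested with edgeR 4.0.16 (R 4.3.3; quasi-likelihood, TMM factors of 0.895 to 1.11, Benjamini-Hochberg adjustment, threshold 0.05) with group as the sole term, after a trial on simulated data. CPM are relative to the scaled total of tested features. Alternatives were DESeq2 1.42.0, limma 3.58.1, RLE scaling, no filter, fragment-sized counts, other totals, a replicate block and leaving out each library.

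Named genes were the members, their receptors and scavengers, other chemokines at 1 FPKM, markers needed beside a result, and for members spanning more than 1 log2 unit the 3 genes of smallest root mean square difference (log2(CPM + 0.5), centred). Of 223 entries in 20 lists, 222 were found. The members and lists were chosen with earlier results of these data known. Some genes that this rule or the lists name are not reported here.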

Additional observations from a re-analysis of the deposited data

How the results depend on the processing

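No chemokine gene passed under any of 14 alternatives (lowest adjusted p = 0.320, Ccl20 in DESeq2), and no isoform under 10 (lowest adjusted p = 0.263). In 129 of 140 gene and alternative pairs the direction was kept. Of the 11 reversals, 9 came from leaving out a library: without cold water 1, Cxcl13 stood at -0.46, Cxcl9 at -0.42, Ccl6 at -0.12 and Ccl28 at -0.062; without control 2, Cxcl9 at -0.13, Ccl6 at -0.063 and Cxcl12 at -0.0083; without cold water 3, Cxcl12 at -0.12; without control 3, Ccl25 at 0.10. Cxcl12 was also reversed by limma on log2(FPKM + 1) (-0.20) and log2(FPKM + 0.1) (-0.26). With 1 library left out, log2 differences ranged from 0.40 to 1.08 for Ccl5, -0.12 to 0.20 for Ccl6, 0.90 to 2.72 for Ccl20, -0.25 to 0.10 for Ccl25, -0.062 to 0.62 for Ccl28, -0.42 to 0.58 for Cxcl9, -1.37 to -0.15 for Cxcl10, -0.12 to 0.22 for Cxcl12, -0.46 to 2.68 for Cxcl13 and 0.23 to 0.78 for Cxcl16. The number of members above 0 then ranged from 4 to 9.

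Over all genes, 5 passed in edgeR's test as reported, 71 with DESeq2, 3 without a filter, 3 with fragment-sized counts, 2 and 3 with limma at pseudocounts of 1 and 0.1, and 0 to 1 with a library left out; the cause was not tested. Nothing in the labels pairs the replicate numbers, so the main fit did not pair them. Across genes, deviations from the group mean had r = -0.0062, 0.24 and 0.44 between same-numbered libraries. Between unlike-numbered libraries r ran from -0.42 to 0.19. Whether same-numbered libraries belong together cannot be told from these values. With the replicate block 0 genes passed and 8 members stood above 0. Cxcl9, Cxcl13 and Ccl20 fall to 23 to 50 fragments in some libraries, which limits their precision.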
